A study of Mus musculus with 2 samples.

Results

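MHC class II molecules display peptides from internalised proteins to CD4 T cells, and this account follows 9 mouse genes of that pathway, namely the chain genes H2-Aa, H2-Ab1 and H2-Eb1, the loading genes H2-DMa, H2-DMb1, H2-Oa, H2-Ob and Cd74, and the transactivator gene Ciita. They were chosen by name, with earlier results of these arrays known, as all non-control probes whose gene name in the array files equals one of these symbols. Their differences between the arrays, among them the value of Ciita against the others, were part of what was known, so they are given as a description. This gave 18 of 56605 probes and 9 of 37074 gene names. Blood RNA was measured on 1 array of a heated sample (pretreated for 1 h in a water bath at 37 °C, then held for 1 h at 38.5 °C) and on 1 array for a control sample, for which the labels give no temperature or time. The labels name mouse and blood but no strain, sex, age or genotype, and do not say whether animals or drawn blood were heated, so the effects of heat, of the pretreatment and of handling cannot be told apart. The protocols for both samples include differential lysis of red and white cells and depletion of globin messages. Although the protocols speak of replicates, each group held 1 array, so the differences have no replicate check, no p-value is given, and overlap between groups cannot be judged. The number of arrays limits the precision.

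A class II molecule is a dimer of an alpha and a beta chain that is assembled with the invariant chain, the product of Cd74, which fills the groove until proteases of the endosome remove it. H2-DM then helps to exchange the remaining fragment for antigenic peptides, and H2-O, found mainly in B cells, restrains H2-DM. CIITA binds no DNA itself: it docks on RFX, CREB and NF-Y at the X and Y boxes of class II promoters, and its own transcription is driven from alternative promoters, one of which responds to interferon gamma. Macrophages carry little class II until they are activated, whereas B cells and dendritic cells carry it constitutively.

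The 3 measured Ciita probes carry the difference that stands apart from the rest of the pathway, so the middle 30 bases of each (bases 16 to 45 of the 60, as the array files give them, 5′ to 3′) are shown. All lie on chromosome 16 of mm9, the build named in the file headers, at chr16:10492271-10492330 for probe 1, chr16:10525904-10525963 for probe 3 and chr16:10526458-10526517 for probe 4. Probe 1 is assigned to the cDNA record AK163054, and probes 3 and 4 to the RefSeq transcript NM_001302619. The 4 Ciita probes span 34.2 kb and none of them overlaps another; their place in exons, introns or untranslated regions was not analysed here.
Ciita probe 1: gtcaacagactatttgtaatgttgctacct
Ciita probe 3: ctgtgggccatagcccataagagtcaacat
Ciita probe 4: accttcacggtcactacacttaaaatgcat

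Of the 9 genes, 7 had at least 1 probe well above background on both arrays. Among these 7, the 6 class II chain and loading genes were lower in the heated sample, by 0.14 to 0.29 on the log2 scale, and Ciita was higher by 0.64. None was 2-fold apart, as were 0.663% of the 18562 genes with such a probe. Of those genes, 47.8% lay below 0 and the median was 0.01, while the 6 class II genes had a median of -0.20, or 1.15-fold lower in heat. At or below that median lay 12.1% of all genes, and at or above Ciita lay 0.884%. Differences are heat minus control of log2 processed signals, each array minus its 75th percentile. The scanner software's error for 1 spot came to 0.20 to 0.21 for the difference at each of the 9 measured probes of these 6 genes, so 5 of them lay beyond 1 such error and the lowest at -1.64 errors. That error was nearly the same share of the signal at each of these probes and is not a spread measured between spots. For probes printed repeatedly, the SD of a spot's difference was 0.07 at log2 signals of 10 or more and 0.12 at 7 to 10. Neither value covers the variation between samples.

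**Figure D1:**
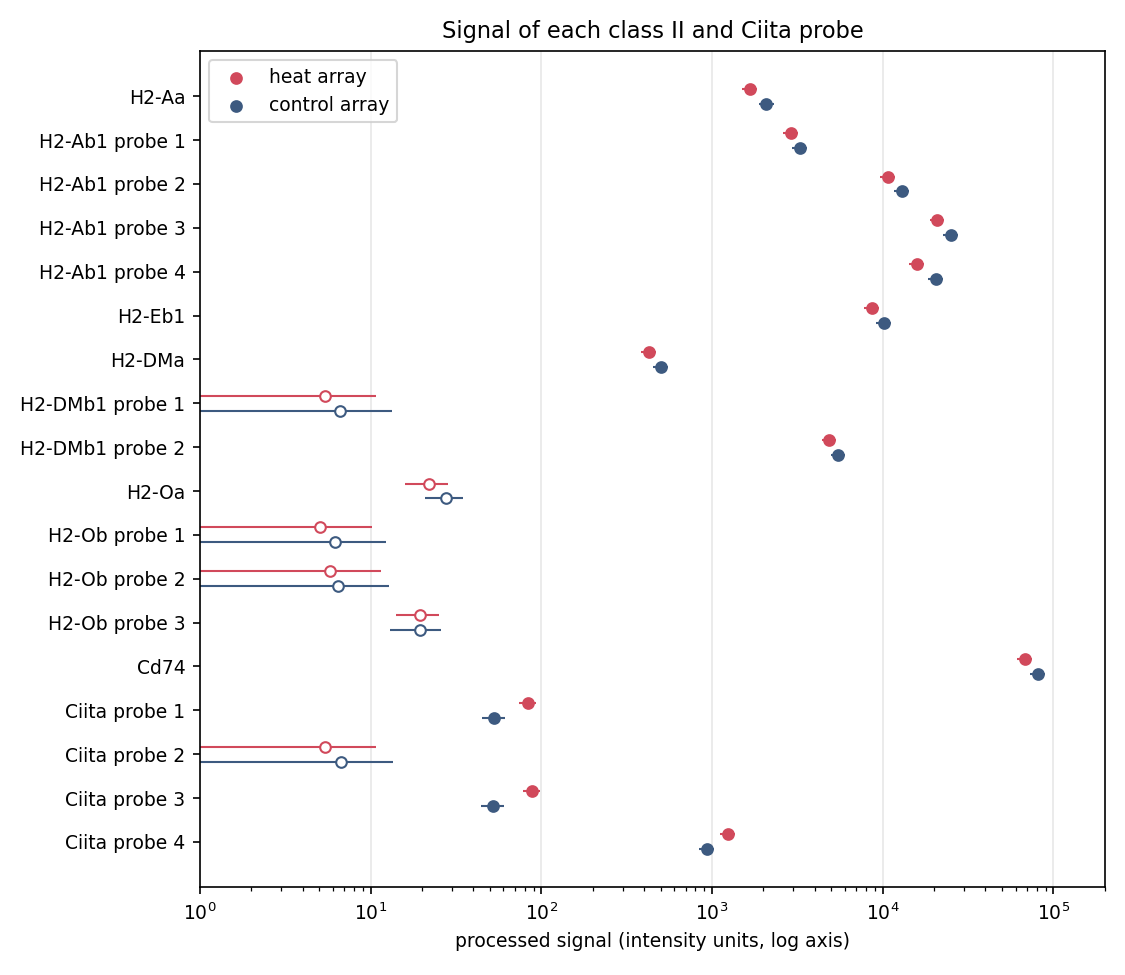
Processed signal of each of the 18 probes (log axis, intensity units) in heat (upper point of each pair) and control (lower point), with the scanner software's error for the spot as bars; open points were not well above background. The heat point lies left of the control point for the 9 measured probes of the class II chain and loading genes and right of it for the 3 measured Ciita probes.

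H2-Aa and H2-Ab1, the genes of the chains of the A molecule, were both lower in heat. H2-Aa encodes the alpha chain of the A molecule, and its probe on chr17:34421285-34421344 had a processed signal of 1665 ± 167 on the heat array, against 2084 ± 208 on the control array (± the software's error for 1 spot). The scaled log2 difference was -0.29. This was the lowest among the 6 genes with this scaling, but the order of the chain genes moved with the processing: with normexp background correction and the 75th percentile H2-Aa had -0.24, above H2-Ab1 and H2-Eb1 at -0.26 each, and it lay above both also with normexp and quantile normalization and with mean minus background signals. Of the 2911 probes whose mean log2 signal lay within 0.5 of this probe, 3.06% were as low or lower. The middle 30 bases of the H2-Aa probe are given because the gene is the farthest of the targets from Ciita with the 75th percentile scaling.
H2-Aa probe: agctttgacccccaaggtggactgcaaaac

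H2-Ab1, the beta chain partner of H2-Aa, is the target with the most probes, and all 4 were lower in heat. Probe 1 (chr17:34404357-34404416) had 2902 in heat against 3264 in control (log2 levels of 11.50 in heat and 11.67 in control), and its difference was -0.13. Probe 2 (chr17:34406059-34406118) had 10749 in heat against 12936 in control, with a difference of -0.23. These probes do not share sequence, whereas the remaining pair does. Probe 3 (chr17:34406296-34406355) had 20921 in heat against 25115 in control, and its difference was -0.22. Probe 4 (chr17:34406305-34406363) had 15885 in heat against 20563 in control, with -0.33. Probes 3 and 4 align over 51 bases, of which 50 match. The mismatch is T51C, counted from 1 at the 5′ end of probe 3 with the base of probe 3 first, so this pair reads nearly the same stretch and is not 2 separate observations of the gene. The 30 bases around it are shown for both, with the differing base in capitals.
H2-Ab1 probe 3: agattacaaataaacgagacTcagactctg
H2-Ab1 probe 4: agattacaaataaacgagacCcagactctg

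The mean over the H2-Ab1 probes was -0.23, with an SD of 0.08 between probes (n = 4 probes of 1 pair of arrays). The probes therefore agreed in sign and lay within 0.20 of each other. Of 2467 genes with 3 or more measured probes, 15.7% had all of them below 0. Probe 1, with the smallest difference, is 0.64 of its own error below 0, and 14.8% of the probes at its level were as low or lower, against 1.75% for probe 4. Its 60 bases lie at lower coordinates than the other 3 probes, in another part of the gene, and are shown for that reason.
H2-Ab1 probe 1: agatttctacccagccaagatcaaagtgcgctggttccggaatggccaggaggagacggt

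H2-Eb1, the beta chain of the E molecule, had 8622 ± 862 on the heat array, against 10165 ± 1017 on the control array, at 1 probe on chr17:34453075-34453134. It was lower in heat by 0.20, and 6.59% of probes at its level were as low or lower. Its alpha chain partner H2-Ea, listed as the pseudogene H2-Ea-ps in the array files, had signals of 5.12 in heat and 6.48 in control and did not pass the detection flag. In mice of the H2b haplotype this alpha chain gene is not transcribed and no E molecule forms; the labels name no strain. H2-Eb2 and H2-DMb2, neighbours of H2-Eb1 and H2-DMb1 in the same locus, did not pass it either.

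Among the loading genes, Cd74, the invariant chain, had a mean signal of 1689.9 times its local background in heat and 1976.6 times in control. Its processed signal was 68380 ± 6838 in heat against 80927 ± 8093 in control, or log2 levels of 16.06 in heat and 16.30 in control. The difference was -0.20, about 1 error of the spot, and 4.59% of probes at its level were as low or lower. No spot on either array was saturated.

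H2-DMa, the alpha chain of the peptide exchange factor, had 429 ± 43.2 in heat against 503 ± 50.7 in control, and its difference was -0.19. H2-DMb1, the beta chain of the same factor, had 4867 ± 487 in heat against 5501 ± 550 in control at probe 2 (chr17:34297109-34297168), with a difference of -0.14. The genes of both H2-DM chains were thus lower in heat by less than 1 error of the spot (0.93 and 0.68 errors). At their levels, 10.2% of probes were as low as H2-DMa or lower, and 13.8% as low as H2-DMb1 or lower. These small values moved with the background correction: H2-DMb1 had -0.07 with mean minus background signals and with normexp and quantile normalization, and H2-DMa had -0.11 with normexp and the 75th percentile.

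H2-DMb1 probe 1 disagreed with probe 2 in detection: it had 5.38 in heat against 6.62 in control and failed the detection flag on both arrays. This probe matched the RefSeq promoter window of H2-DMb1 (GRCm38.p6) at 58 of 60 bases, from 27 bases before the annotated start to 33 bases after it. Probe 1 thus lies across the annotated start, and probe 2 at higher coordinates within the gene. H2-DMb2 is a close copy of H2-DMb1; its own probe had 5.65 in heat against 6.19 in control, and whether its RNA also binds H2-DMb1 probe 2 was not tested.

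The H2-O genes, whose product restrains H2-DM, did not pass the detection flag on the arrays of either group. The H2-Oa probe had 22.1 in heat against 27.7 in control, and its mean signal was 2.12 times the local background in heat and 2.09 times in control. The 3 H2-Ob probes had 5.08, 5.77 and 19.5 in heat, against 6.18, 6.39 and 19.5 in control. The dimmest spot that counted as well above background had 24.9 in heat and 31.0 in control. No fold is given for H2-Oa and H2-Ob, since both arrays give only a bound.

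**Figure D2:**
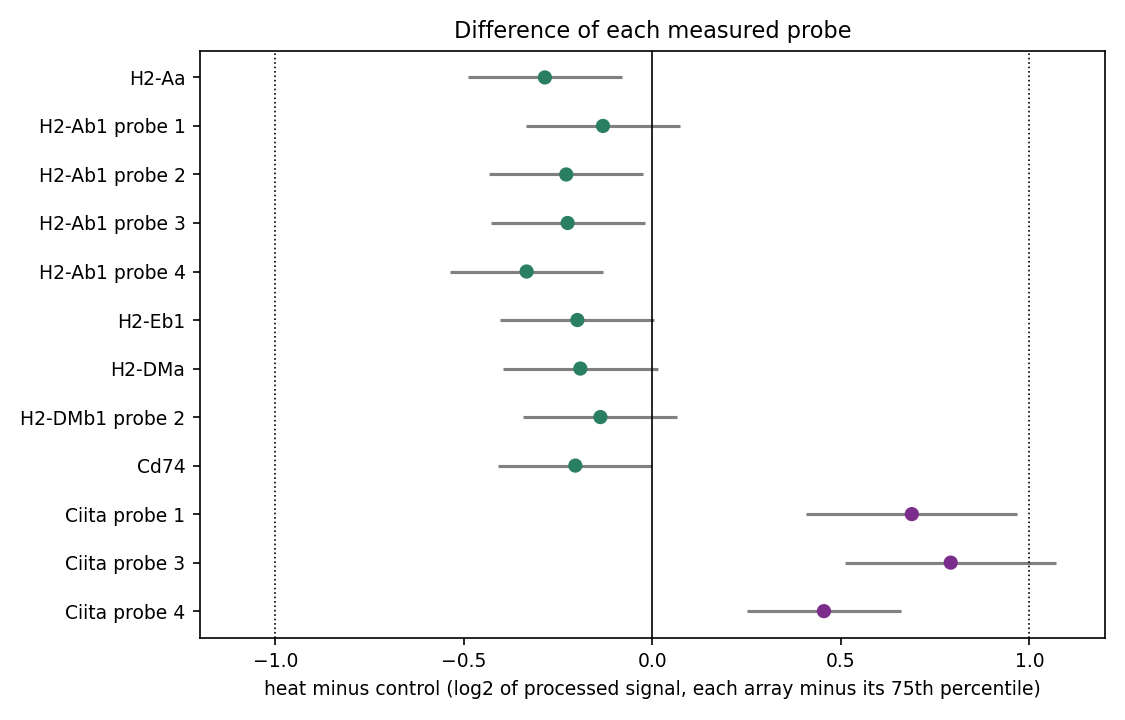
Heat minus control of the 12 measured probes on the log2 scale, with the scanner software's error of the difference as bars (green, class II chain and loading genes; purple, Ciita); dotted lines mark 2-fold. The 9 green points lie between -0.33 and -0.13 and the 3 purple points between 0.46 and 0.79.

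Ciita, the regulator of these genes, went the other way at each of its 3 measured probes. Probe 4, at the highest coordinates, had 1245 ± 125 on the heat array, against 933 ± 93.5 on the control array (log2 levels of 10.28 in heat and 9.87 in control), and its difference was 0.46, or 1.37-fold higher in heat. Probe 3, the nearest to it, had 88.3 ± 10.3 in heat against 52.4 ± 8.12 in control, with a difference of 0.79. Probe 1, at the other end of the span, had 83.2 ± 9.70 in heat against 53.0 ± 8.21 in control, with 0.69. Heat was the higher array in all 3, by 2.23 to 2.83 errors of the spot. Probe 2 (chr16:10512788-10512847), assigned to the cDNA record AK155311, had 5.40 in heat against 6.70 in control and failed the detection flag on both arrays.

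Probes 1 and 3 stood close to background and probe 4 well clear of it. The mean signal was 3.40 and 3.70 times the local background in heat and 2.48 times in control at probes 1 and 3, but 32.1 times in heat and 25.0 times in control at probe 4. Spots of probes printed repeatedly on the array show what this means for precision: the SD of a single spot's difference around its probe's mean was 0.23 at log2 signals under 7 (9 probes) and 0.07 at 10 or more (269 probes). At the level of probe 1, 2.71% of 3652 probes were as high or higher, at that of probe 3 1.66% of 3666, and at that of probe 4 1.15% of 2969. The probe with the smallest Ciita difference was thus the one farthest above background.

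The mean over the 3 Ciita probes was 0.64, or 1.56-fold higher in heat, with an SD of 0.17 between probes (n = 3 probes of 1 pair of arrays). A difference of 0.5 or more was reached by 1.86% of all 18562 genes. All probes above 0 was the case for 19.1% of the 2467 genes with 3 or more measured probes. Of these genes, 4 had a mean as high as that of Ciita or higher, which is 0.162%. The other 3, named after their values were seen, were Ttll5, Nf2 and Tns1. The probes of Ttll5 ranged from -0.14 to 2.40 and those of Nf2 from 0.10 to 1.78, while those of Tns1, a focal adhesion protein, lay between 0.57 and 0.78. The probes of Ciita, between 0.46 and 0.79, lay farther apart than those of Tns1 and closer together than those of Ttll5 and Nf2.

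**Figure D3:**
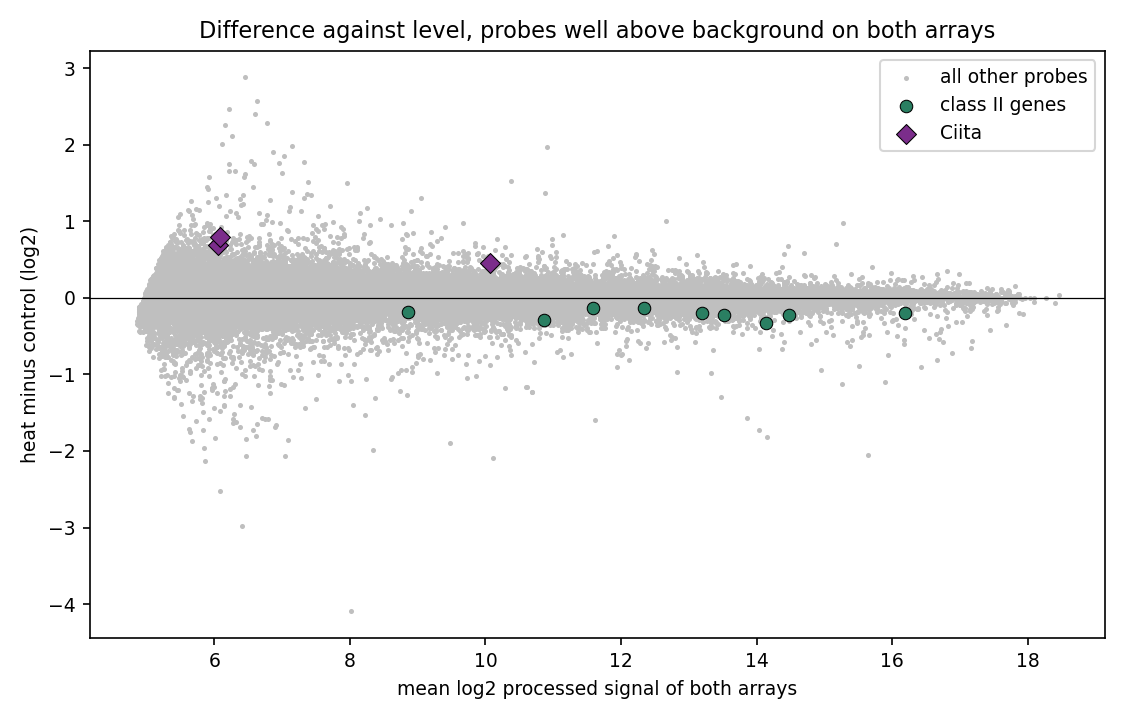
Heat minus control (log2) against the mean log2 processed signal of both arrays for the 28755 probes well above background on both (grey), with class II chain and loading probes as green circles and Ciita probes as purple diamonds. Ciita probes 1 and 3 lie among dim probes, where the grey cloud is wide, and probe 4 lies at the upper edge of a narrower part of it.

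Set against its targets within the same pair of arrays, Ciita lay above each of the 6 measured genes. The gap was 0.93 to H2-Aa, 0.87 to H2-Ab1, 0.84 to H2-Eb1, 0.85 to Cd74, 0.84 to H2-DMa and 0.78 to H2-DMb1 on the log2 scale. Against the median of the 6 the gap was 0.85, and with single Ciita probes in place of their mean it was 0.89 with probe 1, 0.99 with probe 3 and 0.66 with probe 4. A constant scaling of either array cancels in such a gap. Under normexp background correction with an offset of 50, which adds that amount to every signal, the difference of Ciita was 0.40 with quantile normalization and 0.43 with the 75th percentile. Its 3 probes then lay between 0.37 and 0.46, and probe 4 was the highest of them with both normexp settings.

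**Figure D4:**
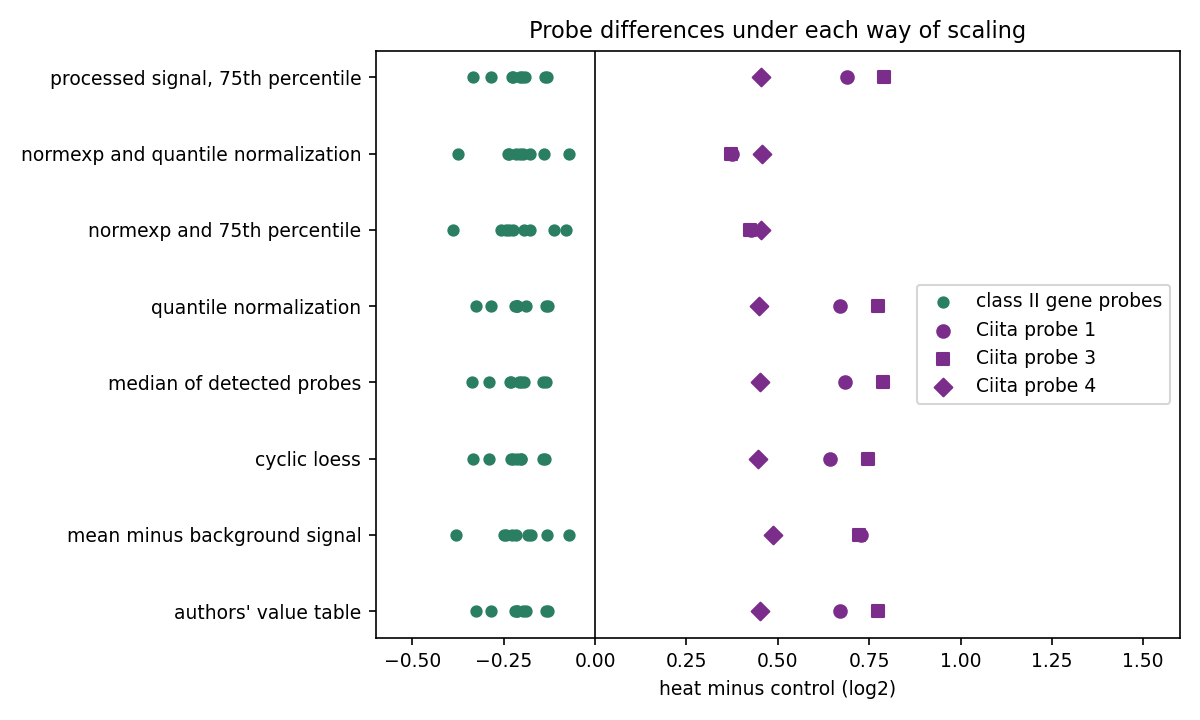
Heat minus control (log2) of the 9 measured class II chain and loading probes (green) and the 3 Ciita probes (purple circle, square and diamond for probes 1, 3 and 4) under 8 ways of scaling the arrays. In each of the 8 ways the green points lie below 0 and the purple points above it, and Ciita probes 1 and 3 come down to 0.37 with normexp and quantile normalization while probe 4 stays at 0.46.

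The X and Y boxes through which CIITA acts were looked up in the RefSeq promoter windows (GRCm38.p6, 250 bases before to 50 after the start), which held 7 windows of 6 of the members; H2-Ab1, Cd74 and Ciita were not among them. The letters searched were AGCAAC, a core of the X box, and GATTGG, a Y box, on both strands; these letters do not overlap each other. GATTGG was found in a window of each of these 6 genes, and in 16.1% of all 32851 windows. AGCAAC followed 10 to 40 bases on by GATTGG, on the strand of the gene, was found in 3 of the 6 genes and in 30 windows in all (0.0913%). Windows with the pair, and that of H2-Aa for comparison, are shown with the letters found, on either strand, in capitals, because 1 of the genes with the pair was measured (H2-Eb1) and the others (H2-Oa and H2-Ob) were not well above background. They are chr17:34305617-34305916 on the plus strand for H2-Eb1, chr17:34092129-34092428 on the plus strand for H2-Oa, chr17:34238655-34238954 on the plus strand for H2-Ob and chr17:34287774-34288073 on the minus strand for H2-Aa.
H2-Eb1 promoter: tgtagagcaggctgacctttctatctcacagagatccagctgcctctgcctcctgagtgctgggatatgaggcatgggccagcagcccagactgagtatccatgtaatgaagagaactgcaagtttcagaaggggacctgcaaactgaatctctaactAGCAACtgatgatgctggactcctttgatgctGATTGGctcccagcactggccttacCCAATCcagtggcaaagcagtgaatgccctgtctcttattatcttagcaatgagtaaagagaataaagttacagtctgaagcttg
H2-Oa promoter: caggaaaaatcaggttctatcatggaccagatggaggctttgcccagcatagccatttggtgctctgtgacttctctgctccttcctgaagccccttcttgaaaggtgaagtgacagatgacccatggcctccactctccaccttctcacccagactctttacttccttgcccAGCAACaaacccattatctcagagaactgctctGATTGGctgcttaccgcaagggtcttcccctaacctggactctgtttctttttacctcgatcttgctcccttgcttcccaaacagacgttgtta
H2-Ob promoter: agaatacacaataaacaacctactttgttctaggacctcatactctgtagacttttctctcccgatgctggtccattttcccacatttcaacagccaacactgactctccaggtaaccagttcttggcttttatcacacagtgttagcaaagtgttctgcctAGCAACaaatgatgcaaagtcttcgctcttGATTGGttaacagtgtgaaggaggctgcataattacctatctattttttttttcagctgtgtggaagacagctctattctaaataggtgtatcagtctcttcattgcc
H2-Aa promoter: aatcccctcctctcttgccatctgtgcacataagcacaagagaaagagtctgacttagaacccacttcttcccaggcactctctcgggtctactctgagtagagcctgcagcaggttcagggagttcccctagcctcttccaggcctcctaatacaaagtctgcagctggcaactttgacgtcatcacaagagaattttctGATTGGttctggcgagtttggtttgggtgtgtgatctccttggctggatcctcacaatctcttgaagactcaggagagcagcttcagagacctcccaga

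The X core starts 92 bases before the annotated start in H2-Eb1, 77 bases before it in H2-Oa and 88 bases before it in H2-Ob. The bases between X and Y cores number 26, 27 and 24 in the same order. Of the genes with the pair, H2-Eb1 was detected, and H2-Oa and H2-Ob were not. In the H2-Aa window only the Y letters were found by this exact search. Upstream of them that window reads ggcaac, which differs from AGCAAC in its first base, and such variants were not searched. A match is a description of the letters, and no match says nothing of binding.

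The genes of the factors that hold CIITA at these boxes were detected, with differences close to 0. All 7 enhanceosome genes were measured, 6 of them lower and 1 higher, with a median of -0.05 and none at 0.2 or more in either direction. Creb1, whose product binds the X2 box, had -0.09, although its 5 measured probes ran both ways, from -0.55 to 0.22. Rfx5, the DNA-binding subunit of RFX, had -0.08 with signals of 106 in heat and 114 in control. Rfxank, another RFX subunit, had -0.07, and Nfyc, a subunit of NF-Y, had -0.05. Thresholds of 0.2 lower and 0.2 higher were passed by 12.2% and 13.1% of all genes.

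The genes that feed or restrain Ciita transcription were mixed. Of 11 genes of the interferon gamma input, 10 were measured, 6 higher and 4 lower, with a median of 0.03, and Ifng itself did not pass the detection flag in heat or control. Socs1, a feedback inhibitor of JAK signalling that interferon gamma induces, had 177 in heat against 266 in control and the list's lowest value at -0.55. Irf8, a transcription factor of myeloid cells, was at 0.31, with both probes above 0.2. Irf2, a factor that binds the interferon-responsive Ciita promoter, had 0.12 and Jak2, a kinase of the receptor, 0.11. Irf1, which is itself induced by interferon gamma, had -0.06.

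Of 5 genes listed as restraining Ciita, all were measured, 4 lower and 1 higher, with a median of -0.11. Prdm1, which encodes BLIMP-1, a repressor of Ciita in plasma cells, had 903 in heat against 1147 in control and a difference of -0.31. Il10, a cytokine that dampens antigen presentation, had -0.12 with signals of 38.0 in heat and 42.4 in control, near the dimmest that counted as well above background. Ezh2, a histone methyltransferase, had -0.11, and Bhlhe40, a transcriptional repressor, -0.08.

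The genes of cathepsins S and B were lower in heat, and several other genes of endosomal antigen processing were not. All 10 genes of endosomal antigen processing were measured, 5 higher and 5 lower, with a median of 0.02, and 2 of them lay at -0.2 or lower. Ctss, which encodes cathepsin S, the protease that makes the last cut of the invariant chain in B cells and dendritic cells, had 151589 in heat against 208273 in control. Its difference of -0.42 was the lowest of the list, beside an error of 0.20 for its spot. Ctsb, another cathepsin, had -0.32 with 118384 in heat against 151522 in control. Ifi30, the thiol reductase GILT, had 0.11 and Lgmn, the asparaginyl endopeptidase, 0.10. Each of these 4 genes had 1 measured probe.

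Genes of class II turnover and costimulation showed no common direction. Of 7 on the array, 6 were measured, 4 higher and 2 lower, with a median of 0.06. Cd86, a ligand of CD28, had 0.26, with each of its 4 probes at 0.14 or more, and Cd80, the other CD28 ligand, had 0.10. Cd40, the receptor for CD40 ligand, had -0.21 with 162 in heat against 193 in control. Cd83, which stabilises surface class II in dendritic cells, had 0.08. The ubiquitin ligase gene March1, whose product removes class II from the surface, had 0.04.

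**Figure D5:**
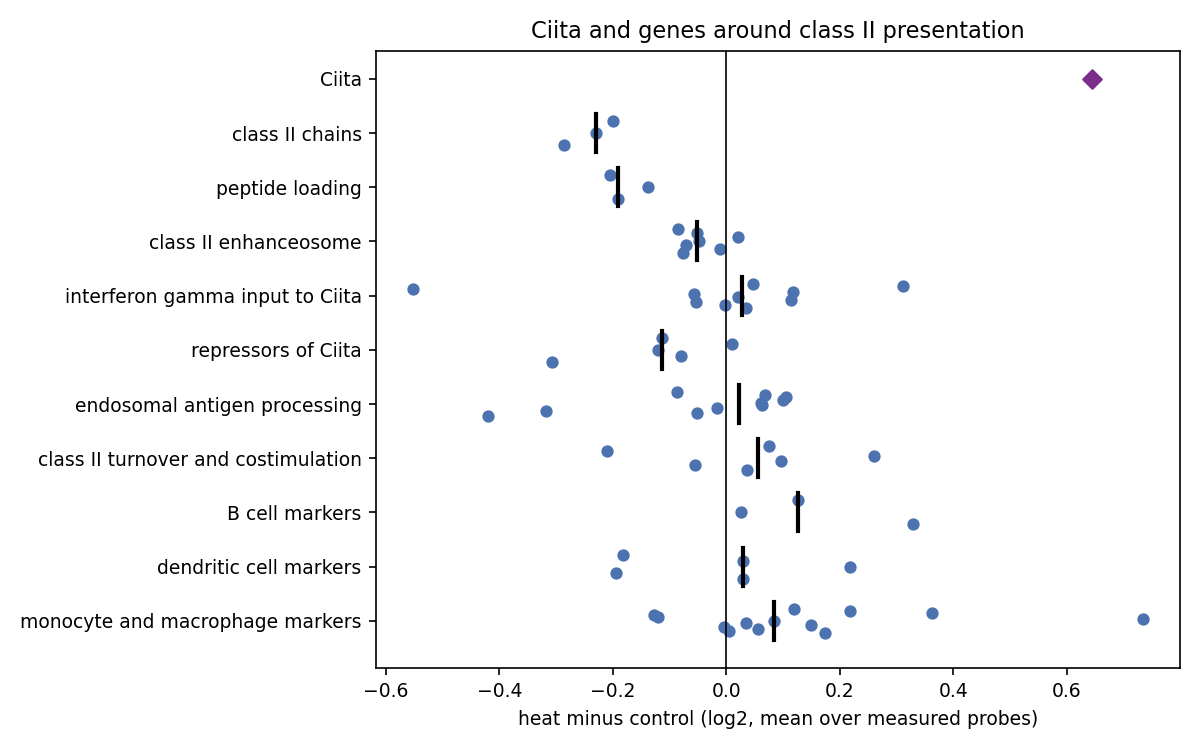
Heat minus control (log2, mean over measured probes) of Ciita (diamond), of each measured gene of 7 lists around class II presentation and of 3 lists of cell type markers (points), with the median of each list as a bar. The class II chains and loading genes lie left of 0, Ciita lies right of the points of the lists other than Ccr2 among the monocyte and macrophage markers, and the medians of the other lists drawn lie between -0.11 and 0.13.

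The cells behind these signals were checked through marker genes, since in blood fewer cells of a type and less RNA per cell cannot be told apart. Some defining markers of B cells lay near background: Ms4a1 (CD20), Cd79a and Pax5 did not pass the flag in heat or control. The 2 probes of Ms4a1 had at most 12.5 in heat and at most 19.1 in control. Of the 12 B cell markers 3 passed it in each sample, with Cd79b at 0.33, Cr2 at 0.13 and Cd22 at 0.03. Cd79b had 219 in heat and 179 in control, Cr2 80.5 in heat and 75.7 in control, and Cd22 516 in heat and 528 in control. The summed signal of the 12 was 1299 in heat against 1293 in control. Of 12 dendritic cell markers, 7 were detected in heat and 6 in control, while the sums were 51621 in heat and 61216 in control. Xcr1, Cd209a, Ccr7 and Bcl11a were not detected on either array. The detected sets differed. Of all 56605 probes, 30471 passed the flag in heat, 29460 in control and 28755 on both, so probes outside these lists also passed on 1 array alone. Clec9a, a receptor of cross-presenting dendritic cells, passed in control alone, and its brightest probe on each array had 5.24 in heat and 105 in control. Flt3, the receptor for a dendritic cell growth factor, passed in heat alone with 27.8 in heat and 25.6 in control. The Flt3 signals lie near the dimmest that passed, 24.9 in heat and 31.0 in control, whereas the 105 of Clec9a in control lies well above them. Zbtb46, a transcription factor of classical dendritic cells, also passed in heat alone, with 38.6 in heat and 18.4 in control. For Clec9a, Flt3 and Zbtb46 the signal is that of the brightest probe per array, so both values need not come from the same probe. The 5 markers measured in both had a median of 0.03, with 3 higher and 2 lower. Siglech, listed here as a dendritic cell marker, made up most of the sums, with 41186 in heat against 48409 in control and a difference of -0.19. Batf3 had 0.22, and Dpp4 had -0.18 with 34.2 in heat and 39.9 in control. Itgax had 0.03, with its 3 probes running from -0.30 to 0.46. All 13 monocyte and macrophage markers on the array were detected on both arrays, with sums of 837473 in heat and 843386 in control, 10 of them higher and 3 lower, and a median of 0.08. Ccr2, the monocyte chemokine receptor, had 0.73, Mertk, a receptor for dying cells, had 0.36, and Ly6c1 had 0.22. Of 11 T cell markers on the array, 8 were detected in heat and 7 in control, and Cd3g, Cd8a and Cd2 were detected in neither, while Zap70 passed the flag in heat alone. The 7 measured in both had a median of 0.18, with 5 higher and 2 lower. Among them were Cd28 at 0.35, Cd247 at 0.32, Cd3d at 0.29, Cd4 at 0.18, Il7r at -0.04 and Cd3e at -0.12. Sums over the list were 28505 in heat and 28561 in control, and Il7r made up most of them, with 21059 in heat against 22178 in control. Of 10 red cell markers, 4 passed the flag in heat and 4 in control, and Hbb-b1 and Alas2 did not. The part of cell makeup in the class II differences was not tested.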

How the data were processed

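RNA of 1 heated and 1 control sample was labelled with Cy3 and hybridised to 1 Agilent array each. The deposited scanner files hold linear intensity values made, per the file headers, with Agilent Feature Extraction 10.7.1.1 (protocol GE1_107_Sep09, probe coordinates in mm9); the submitters' processing notes name version 9.1. The authors' deposited value table holds log2 values that matched quantile-normalized log2 processed signals (median 5.27 in each column); it served as an alternative. The deposited flags and the error of each spot come, per the file headers, from the same software.

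Of 62976 spots, 59305 were outside the controls. Spots flagged as outliers, 168 in heat and 149 in control, were dropped, and none was saturated. Log2 processed signals were averaged per probe and scaled by each array's 75th percentile (604 in heat, 620.5 in control, as linear signal). A probe passed on an array when over 0.5 of its spots were well above background (30471 probes in heat, 29460 in control). It was measured when it passed on both arrays (28755 probes), and measured probes were averaged per gene. No test was run, since each group held 1 array. The error of a probe's difference combines the 2 spots' relative errors. Every member was named. Of each other list, up to 4 measured genes with the largest differences and some markers not detected were named, and further genes where a sentence turns on them. The members and lists were chosen with earlier results of these data known. The steps were tested on simulated data with planted differences larger than those of the members. Differences as small as those of the members were not part of that test. Promoter windows came from RefSeq (GRCm38.p6). R 4.3.3, limma 3.58.1, Python 3.11.15, numpy 2.4.6 and pandas 2.3.3 were used.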

Additional observations from a re-analysis of the deposited data

How the results depend on the processing

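Over 9 alternatives (2 normexp settings, cyclic loess, quantile normalization, mean minus background signals, scaling by the median of detected probes, dim probes kept, the brightest probe per gene and the authors' value table), all 54 values of the 6 measured class II genes stayed below 0 and moved by less than the SD of 1 spot (0.08). For the smallest of them such a move is large: H2-DMb1, at -0.14, had -0.07 with mean minus background signals and with normexp and quantile normalization, and -0.08 with normexp and the 75th percentile, where H2-DMa had -0.11 in place of -0.19. The 54 values are not separate observations, since all come from the same pair of arrays. Among these genes, keeping dim probes changed H2-DMb1 alone and taking the brightest probe changed H2-Ab1 alone. The authors' value table nearly repeats the quantile setting, and the median of detected probes shifts every gene by the same amount. H2-Aa was the lowest of the 6 in 6 of the 9 alternatives and lay above H2-Ab1 and H2-Eb1 in the other 3 (both normexp settings and mean minus background). Their median ranged from -0.22 to -0.20, and 6 of the 7 measured members lay below 0 in each. With dim probes kept, H2-Oa and H2-Ob are not counted, since both arrays give only a bound for them. Ciita stayed above 0 in all 9, from 0.40 to 0.65. Its gap to the median of the other class II genes, 0.85, was 0.62 with normexp and quantile normalization, 0.65 with normexp and the 75th percentile, 0.62 without the filter on dim probes and 0.66 with the brightest probe per gene. The offset of 50 shrinks differences of dim probes by construction, and the last pair of alternatives brings in probe 2, not well above background, or keeps probe 4 alone. Without the filter the median of all genes was -0.10, against 0.01 with it, so the class II genes then lay 0.10 below that median. No member was 2-fold or 4-fold apart. No paired analysis was possible because each group held 1 array. Probes close to background, such as Ciita probes 1 and 3, limit what can be said of their size of difference.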
